A study of Mus musculus with 18 samples.

Results

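Genes of immune inhibition were followed through RNA libraries of purified mouse brain microglia. The 10 members were Pdcd1, Cd274, Vsir, Havcr2, Cd200r1, Siglech, Sirpa, Lilrb4a, Pilra and Cd33, and each was found by its symbol among the 55414 Ensembl gene identifiers of the deposited count table, so that 10 of 10 members had a row. The members were chosen by name with results of these same libraries in view, that is, with their UMI-corrected counts across the 4 groups as the measured values. Values of the members are therefore a description. Where an adjusted p is printed for a member, it comes from the fit over all tested genes, it shows where the gene lies in that fit, and it is no independent test.

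The study compared microglia of female and male mice labelled KO or WT for Chd8, a chromatin remodeler of the CHD family. Female microglia gave 4 KO and 4 WT libraries and male microglia 5 and 5, all from brain and all labelled HX, a prefix that the labels leave unexplained. The labels used here name no strain, age, treatment or Chd8 allele, nor the mice behind each library. P-values therefore measure the spread between these libraries, which may be technical in part. RNA was counted by a bulk form of MARS-seq, a tag method for the 3' ends of transcripts in which amplified copies of 1 molecule share a barcode, the UMI, and are counted once.

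Inhibitory receptors set a threshold for immune activation. Many carry a tyrosine-based inhibitory motif in the cytoplasmic tail, and once phosphorylated it recruits the phosphatases SHP-1, SHP-2 or SHIP-1, which oppose kinase signalling from activating receptors. Microglia receive such signals from neurons and other neighbours, through CD200 and CD47 for example, and these are known to restrain phagocytosis and inflammatory output. PD-1, the product of Pdcd1, is best known from T cells, where its ligand PD-L1 (Cd274) limits the response.

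Depth set the precision of each value. UMI totals ran from 435838 to 9149144 per library, with female KO replicate 33 and female WT replicate 34 (458075) far below the others. Levels below are in CPM, UMI counts scaled to a common library size with TMM factors, and no level is compared between genes, since these tags carry no length scale. The number of reads per UMI formed 3 ranges that did not overlap, 1.79 to 1.89 in 8 libraries, 2.94 to 3.12 in 6 and 5.52 to 7.26 in 4. In the highest range were 3 female WT libraries, 1 female KO library and no male library. The sum of the 11 microglial markers, none at 0 in any group, split by genotype without overlap and in opposite directions by sex. Their sum was 36447 to 38225 CPM of the library total in KO and 31479 to 34566 in WT females, and 32640 to 36941 in KO and 37365 to 41270 in WT males. Taken singly, each marker overlapped between KO and WT in females. In males every KO library lay above WT for Sall1 and below WT for Fcrls, Olfml3 and Cx3cr1, and the other markers overlapped. The part of the split of the sums in the differences below was not tested. Chd8 itself averaged 104 ± 8.52 CPM (SD, n = 5) in KO and 152 ± 12.7 (n = 5) in WT males, and 123 ± 10.8 (n = 4) in KO and 166 ± 24.3 (n = 4) in WT females. Tags from the 3' end can lie outside the altered sequence and then say nothing about the label.

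Pdcd1 was the member with the widest difference between KO and WT. It was 2.80-fold higher in male KO and 2.57-fold higher in female KO than in WT of the same sex. The gene (ENSMUSG00000026285) lies on the minus strand of chromosome 1 at 94038305 to 94052553 (GRCm38), and overlaps no other annotated gene. In male KO it was measured at 26.998 CPM in replicate 36, 25.9 in replicate 6, 28.4 in replicate 9, 31.3 in replicate 17 and 38.2 in replicate 40. In male WT it was at 13.1 CPM in replicate 13, 10.3 in replicate 37, 11.0 in replicate 10, 7.82 in replicate 11 and 12.1 in replicate 14. Every male KO library lay above every male WT library, which was so for 5.27% of the genes tested.

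In female KO, Pdcd1 was at 7.72 CPM in replicate 33, 27.8 in replicate 16, 22.1 in replicate 1 and 21.8 in replicate 7. In female WT it was at 6.72 CPM in replicate 34, 12.01 in replicate 39, 5.62 in replicate 31 and 10.1 in replicate 30. Female KO replicates 16, 1 and 7 lay above all female WT libraries, and replicate 33 lay among them, so the groups overlapped (2.48% of tested genes had every female KO above every female WT library). That library and female WT replicate 34 held 3 Pdcd1 UMIs each. For 3 UMIs in replicate 33 the exact 95% binomial interval is 1.42 to 20.1 CPM of the library total, counting error only. On that scale the female WT libraries (5.43 to 11.4 CPM) lay inside the interval and the other 3 female KO libraries (22.4 to 28.8 CPM) above it.

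**Figure D1:**
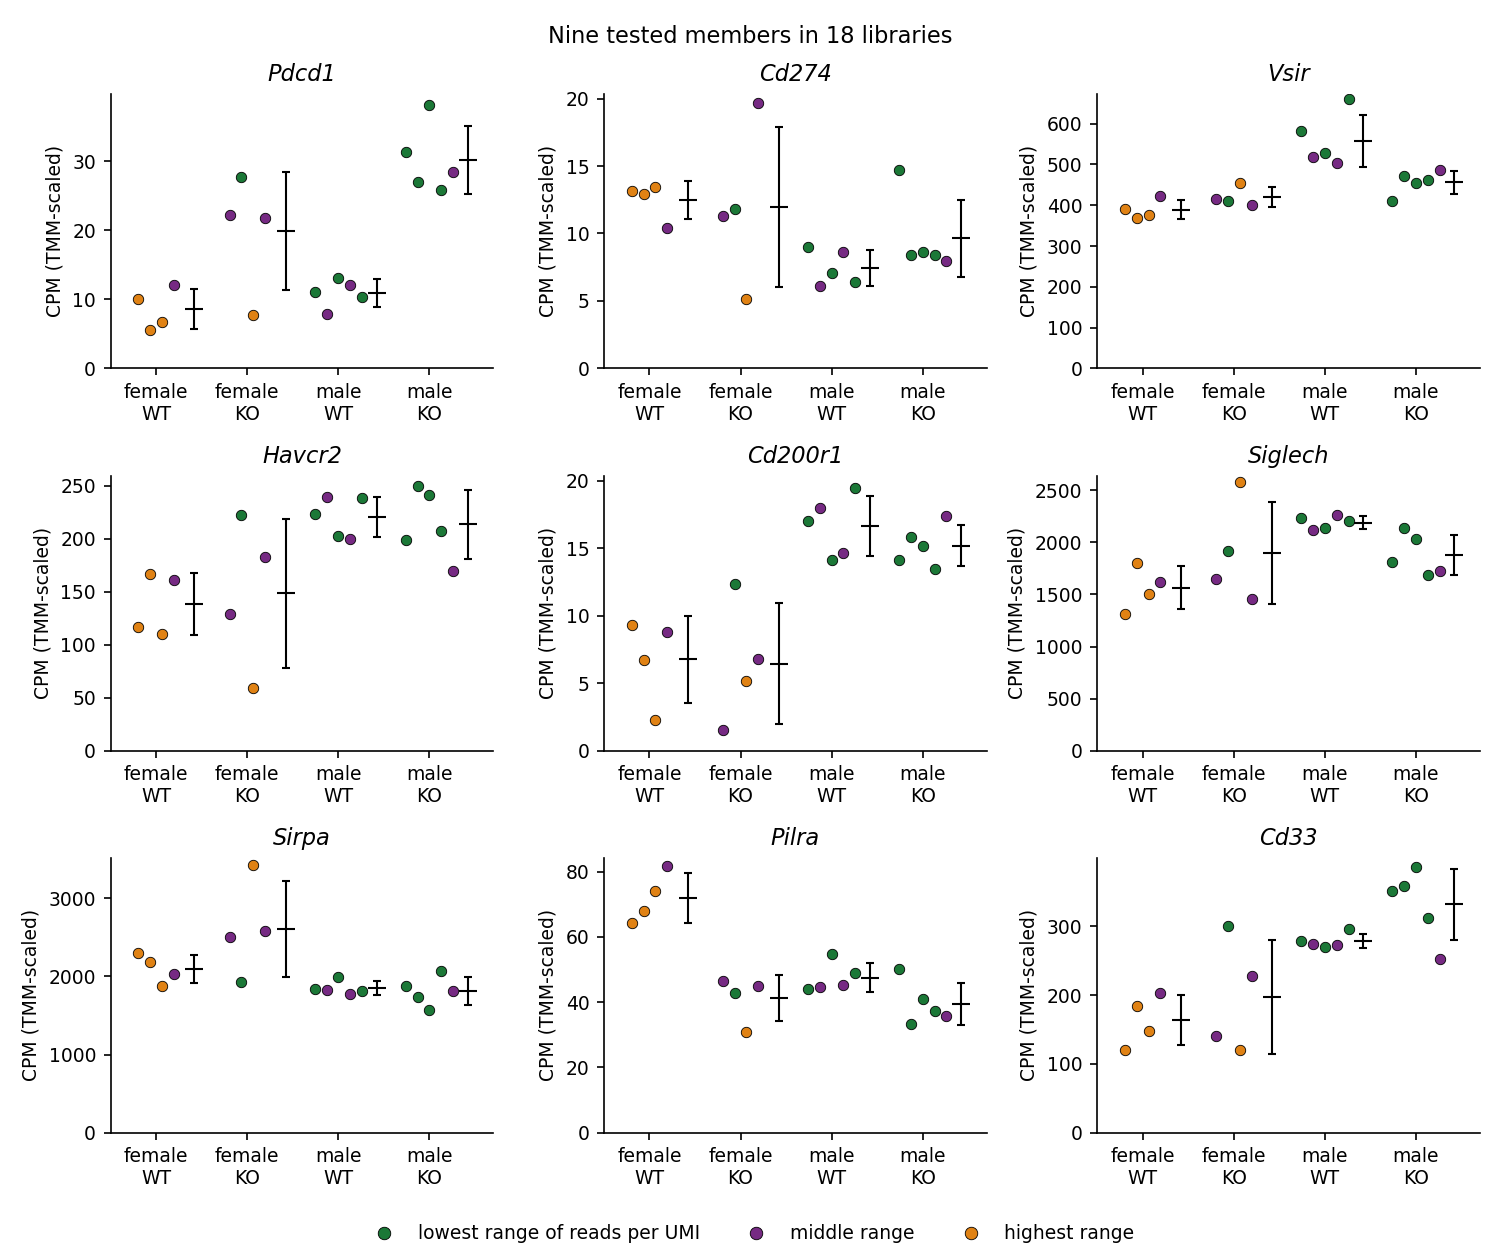
Level of the 9 tested members in every library, in TMM-scaled CPM on a linear axis from 0, by sex and genotype. Points are libraries coloured by range of reads per UMI, and the dash with bars is the group mean ± SD (4 or 5 libraries). For Pdcd1 the male KO points (25.9 to 38.2 CPM) sit above all male WT points (7.82 to 13.1 CPM), and 1 female KO point, replicate 33, sits among the female WT points.

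On the log2 scale Pdcd1 differed by 1.49 ± 0.20 (SE) between KO and WT males (edgeR adjusted p = 7.79e-05) and by 1.36 ± 0.29 in females (edgeR adjusted p = 0.0153). Averaged over both sexes the difference was 1.42 ± 0.17 (edgeR adjusted p = 2.76e-05). The KO effects of the sexes differed by -0.13 ± 0.36 (female minus male, edgeR adjusted p = 0.978), which does not show that they were alike. Group means ran, from low to high, 8.60 ± 2.95 CPM (n = 4) in female WT, 10.9 ± 2.02 (n = 5) in male WT, 19.9 ± 8.54 (n = 4) in female KO and 30.2 ± 4.93 (n = 5) in male KO. The WT groups did not differ beyond their spread (edgeR adjusted p = 0.493), nor did the KO groups (edgeR adjusted p = 0.194), and male WT was not tested against female KO.

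The male difference in Pdcd1 passed in 27 of 27 alternatives, with log2 fold changes of 1.38 to 1.60. Those alternatives include fits that left out a female library and so kept every male library. Among the 7 males in the lowest of the reads-per-UMI ranges the male difference was 1.43 (edgeR adjusted p = 0.000884). The female difference rested on more. After adding that range to the model it was 0.71 (edgeR adjusted p = 0.336), and with female libraries fitted alone it was 1.32 (edgeR adjusted p = 0.208). It also missed the threshold without female KO replicate 16 (1.20, edgeR adjusted p = 0.0595) or female WT replicate 31 (1.12, edgeR adjusted p = 0.0524). Within the middle range, female KO replicates 1 and 7 (22.1 and 21.8 CPM) lay above the single WT library, replicate 39 (12.01 CPM). Within the highest range the single KO library, replicate 33 (7.72 CPM), lay among the 3 WT libraries (5.62 to 10.1 CPM).

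Since PD-1 is known from lymphocytes, their markers were read in the same libraries, as sums in CPM of the library total. The 16 T cell markers summed to 15.3 to 21.8 CPM in male KO, 8.33 to 19.5 in male WT, 9.38 to 16.1 in female KO and 7.06 to 20.5 in female WT, so that the groups overlapped in both sexes. Only 2 of the 16 passed the filter on low counts, Thy1 and Il7r, and 1 of them, Thy1, rose in male KO (1.48 ± 0.41 on the log2 scale, edgeR adjusted p = 0.0310), with every KO above every WT library. In females Thy1 was at -0.94 ± 0.52 (edgeR adjusted p = 0.397). For all the other T cell markers, Cd3d, Cd3e, Cd3g, Lck and Trac among them, male KO and male WT libraries overlapped. The neuronal marker sums, given below, were also higher in male KO, and the part of neurons in the Thy1 rise was not tested. Cd28 was at 0 in all 4 groups, and Cd3e, a subunit of the T cell receptor complex, was at 0.275 ± 0.187 TMM-scaled CPM in male KO and 0.463 ± 0.429 in male WT (n = 5 each).

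Of the lymphocyte sums, that of the 5 B cell markers moved with genotype in males without overlap. It was 87.5 to 98.9 CPM in KO and 56.1 to 77.5 in WT males, and 45.9 to 95.2 in KO and 17.5 to 62.2 in WT females. Cd79b, the 1 of the 5 that passed the filter on low counts, was higher by 0.53 ± 0.13 averaged over both sexes (edgeR adjusted p = 0.0120), while Ms4a1 and Pax5 were at 0 in male KO. The 6 natural killer cell markers summed to at most 8.73 CPM in any library, with Ncr1 at 0 in every group. The part of T, B and natural killer cells in the Pdcd1 difference was not tested.

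**Figure D2:**
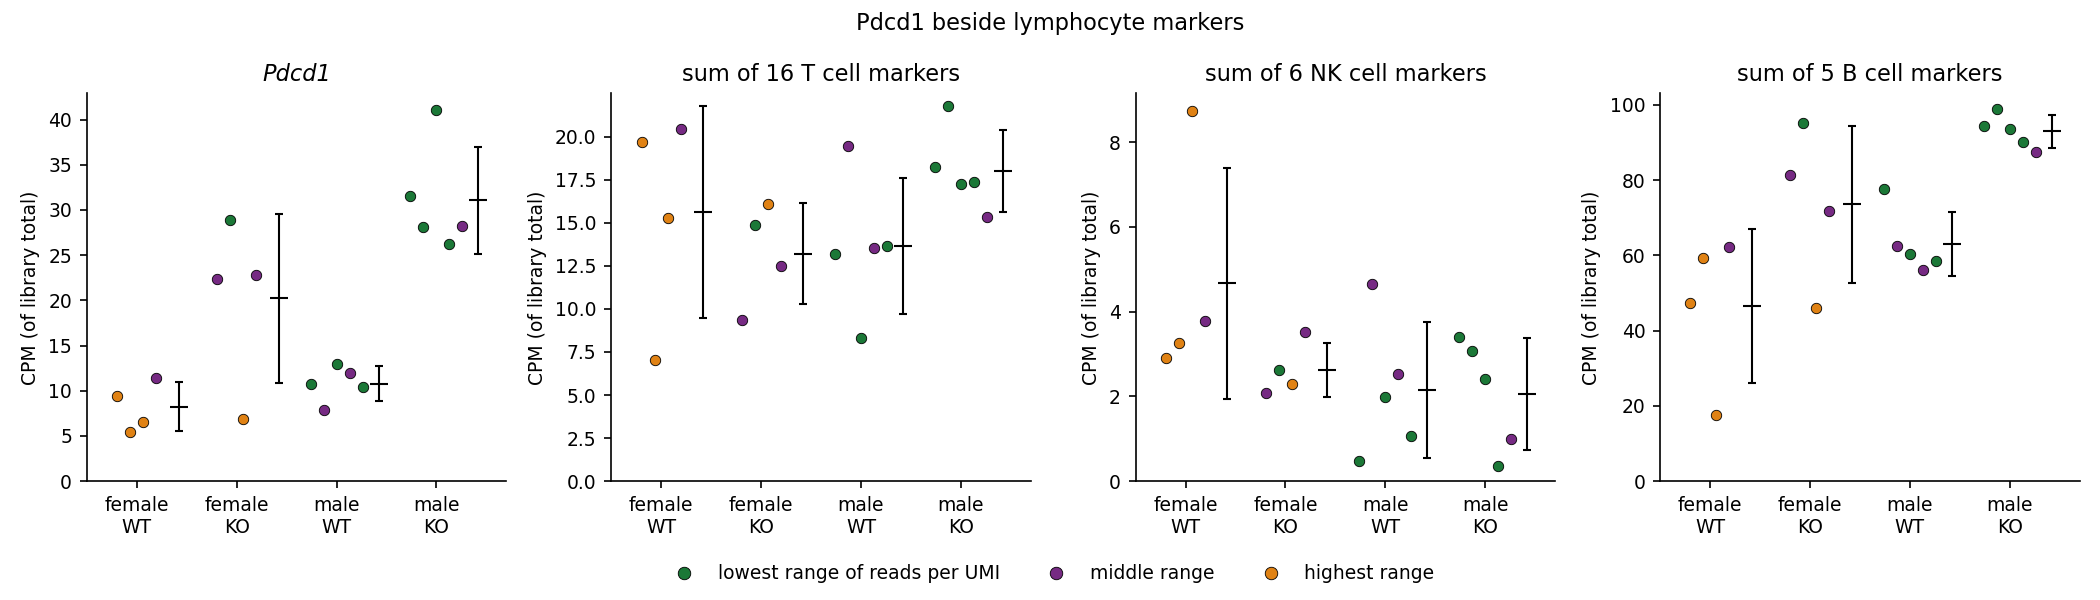
Pdcd1 and the summed markers of T cells (16 genes), natural killer (NK) cells (6) and B cells (5) in every library, in CPM of the library total, each panel on its own linear axis from 0, with libraries as points coloured by range of reads per UMI and group mean ± SD. The male KO points lie above all male WT points for Pdcd1 and for the B cell sum (87.5 to 98.9 against 56.1 to 77.5 CPM), and overlap them for the T and NK cell sums.

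Other cells' markers did move with genotype in males. Border-associated macrophage markers (10 genes, none at 0) reached sums of 183 to 293 CPM in KO males against 39.3 to 73.8 in WT males. Neuronal markers (8 genes) summed to 44.6 to 195 against 11.1 to 24.4 CPM, astrocyte markers (7 genes, Gja1 at 0 in WT) to 249.9 to 462 against 132 to 181, and oligodendrocyte markers (6 genes, Mog at 0 in WT) to 242 to 826 against 101 to 152. In bulk RNA, more cells of a type and more RNA per cell cannot be told apart, and the part of these cells in the Pdcd1 difference was not tested. Without male KO replicates 6, 9 and 17, the 3 male KO libraries with the highest neuronal, astrocyte and oligodendrocyte sums, the male log2 difference of Pdcd1 was 1.60 (edgeR adjusted p = 0.00287). The male KO libraries kept, replicates 36 and 40, still lay above every male WT library in all these sums. Their neuronal sums were 44.6 and 45.1 CPM and their border-associated macrophage sums 293 and 190 CPM. That fit therefore does not remove the difference in these markers.

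Cd274, the PD-L1 ligand gene (ENSMUSG00000016496, chromosome 19, 29367455 to 29388095, plus strand), did not differ between KO and WT in either sex beyond the spread. In male KO it was at 8.44, 8.39, 7.97, 14.7 and 8.63 CPM in replicates 36, 6, 9, 17 and 40. In male WT it was at 7.06, 6.38, 9.01, 6.08 and 8.61 CPM in replicates 13, 37, 10, 11 and 14. Male KO replicate 17 stood above the rest and the other values overlapped. The female KO libraries spread from 5.15 to 19.7 CPM around the female WT libraries at 10.4 to 13.4 CPM. The log2 differences were 0.38 ± 0.24 in males (edgeR adjusted p = 0.446) and 0.12 ± 0.29 in females (edgeR adjusted p = 0.899). The receptor gene and its ligand gene thus showed differences of unlike size, though the contrast between them was not tested. The gene of the other PD-1 ligand, Pdcd1lg2, was at 0 in every WT library, and in both sexes the KO libraries overlapped the WT libraries.

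Vsir and Havcr2 encode the checkpoint receptors VISTA and TIM-3, which are both expressed by myeloid cells. Vsir (ENSMUSG00000020101, chromosome 10, 60346851 to 60372684, plus strand) was at 471, 462, 485, 411 and 454 CPM in male KO replicates 36, 6, 9, 17 and 40. In male WT it was at 528, 659, 583, 517 and 505 CPM in replicates 13, 37, 10, 11 and 14. All male KO libraries lay below all male WT libraries, which also held for 4.58% of tested genes. The log2 difference of -0.29 ± 0.09 missed the threshold (edgeR adjusted p = 0.0757). It passed with DESeq2 (-0.28, DESeq2 adjusted p = 0.0177), with males fitted alone (-0.28, edgeR adjusted p = 0.0439), without female KO replicate 33 (-0.28, edgeR adjusted p = 0.0432), and within males of the lowest reads-per-UMI range (-0.39, edgeR adjusted p = 0.0261). Female values were 401 to 455 CPM in KO and 368 to 422 CPM in WT (0.11 ± 0.11, edgeR adjusted p = 0.709). Vsir lies within Cdh23 on the opposite strand, and whether strand was used in counting is not stated. Cdh23 was at 53.3 ± 6.59 CPM in male KO and 54.03 ± 4.51 in male WT (n = 5 each).

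Havcr2 (ENSMUSG00000020399, chromosome 11, 46454935 to 46481255, plus strand) was at 213 ± 32.6 CPM (n = 5) in male KO and 220.4 ± 18.8 (n = 5) in male WT. It was at 148 ± 70.6 CPM (n = 4) in female KO and 138 ± 29.3 (n = 4) in female WT. Both pairs overlapped, with log2 differences of -0.04 ± 0.19 in males (edgeR adjusted p = 0.956) and 0.16 ± 0.23 in females (edgeR adjusted p = 0.807). The wide female KO spread came from replicate 33 at 59.2 CPM and replicate 16 at 222 CPM.

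Pilra was the other member that differed, and in the opposite direction. PILRα, its product, is an inhibitory receptor of myeloid cells that binds sialylated glycoproteins. Female KO libraries held 30.9, 42.9, 46.4 and 44.8 CPM in replicates 33, 16, 1 and 7. Female WT libraries held 73.9, 81.6, 68.0 and 64.3 CPM in replicates 34, 39, 31 and 30. Every female KO library lay below every female WT library, which was so for 2.84% of tested genes. The female difference was 1.67-fold, or -0.74 ± 0.15 on the log2 scale (edgeR adjusted p = 0.0127).

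Male KO held Pilra at 33.3, 37.2, 35.8, 50.04 and 40.9 CPM in replicates 36, 6, 9, 17 and 40, and male WT at 54.8, 48.9, 44.05, 44.6 and 45.3 CPM in replicates 13, 37, 10, 11 and 14. The male values overlapped through KO replicate 17, and the log2 difference was -0.27 ± 0.12 (edgeR adjusted p = 0.252). Averaged over both sexes it was -0.50 ± 0.10 (edgeR adjusted p = 0.00209). The difference of the KO effects between sexes was -0.47 ± 0.20 and did not pass (edgeR adjusted p = 0.474). The female call held after adding the reads-per-UMI range to the model (-0.96, edgeR adjusted p = 0.0146) and without each library in turn, and was lost with female libraries fitted alone (-0.74, edgeR adjusted p = 0.158). Fits that left out a male library kept every female library. Within the highest range KO replicate 33 (30.9 CPM) lay below the 3 WT libraries (64.3 to 73.9 CPM), and within the middle range KO replicates 1 and 7 (46.4 and 44.8 CPM) lay below WT replicate 39 (81.6 CPM).

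Features of the annotation and of the samples stand beside Pilra. The gene (ENSMUSG00000046245, chromosome 5, 137821952 to 137836281, minus strand) overlaps Zcwpw1, on the plus strand, at the 3' ends of both genes, and without strand their reads cannot be told apart there. Zcwpw1 moved the other way: it was at 76.4 ± 6.03 CPM in male KO and 46.2 ± 3.75 in male WT (n = 5 each, log2 difference 0.72 ± 0.15, edgeR adjusted p = 0.00323), a call lost on read counts (edgeR adjusted p = 0.0878) and without male KO replicates 6, 9 and 17 together (edgeR adjusted p = 0.0623). In females it was at 82.4 ± 24.6 CPM in KO and 58.4 ± 14.7 in WT (n = 4 each, 0.59 ± 0.18, edgeR adjusted p = 0.0857). The 7 monocyte markers (Vcan at 0 in female WT) summed to 75.7 to 109 CPM in female KO and 108 to 399.5 in female WT, and the 10 neutrophil markers (none at 0) to 1664 to 5894 against 3085 to 16505 CPM. The part of these cells in the Pilra difference was not tested.

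**Figure D3:**
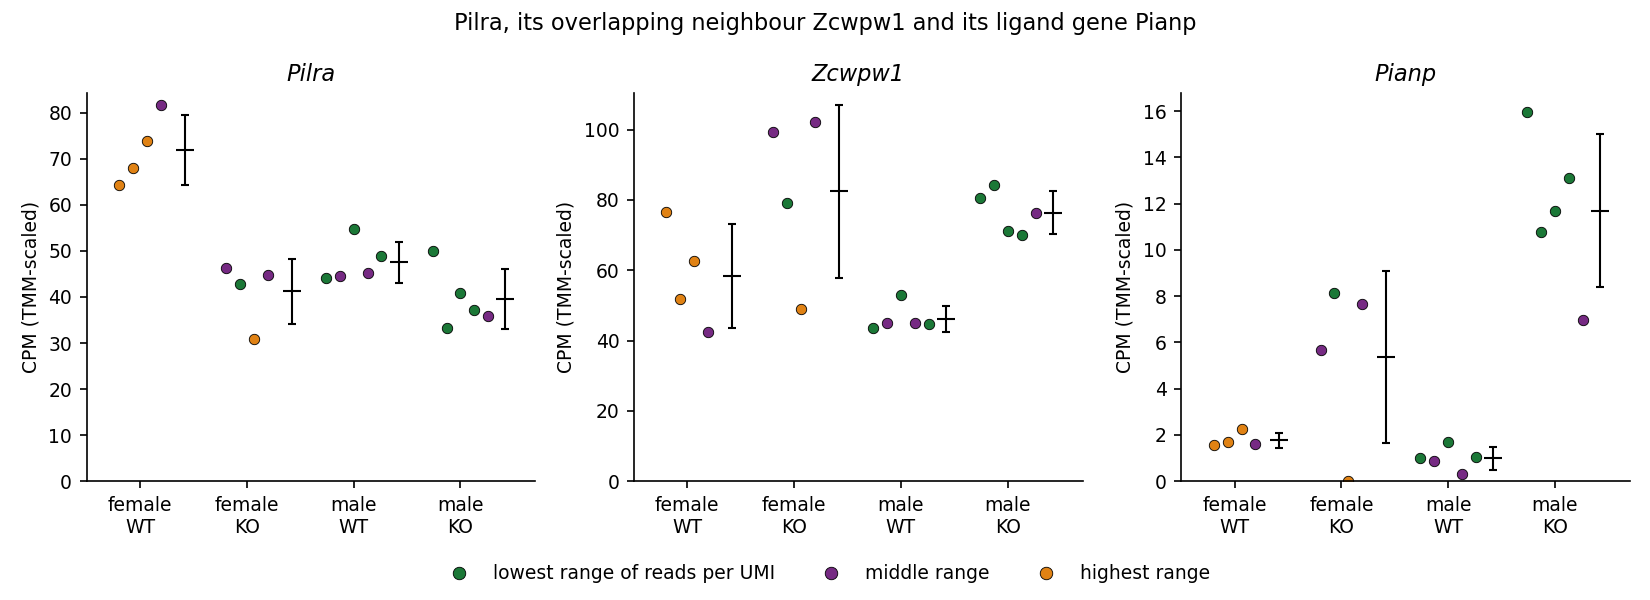
Pilra, the gene Zcwpw1 that overlaps its 3' end on the other strand, and the ligand gene Pianp in every library, in TMM-scaled CPM on linear axes from 0. Points are libraries coloured by range of reads per UMI, with group mean ± SD. Pilra is lower in female KO (30.9 to 46.4 CPM) than in female WT (64.3 to 81.6 CPM), while Zcwpw1 and Pianp are higher in male KO than in male WT.

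Pianp, which encodes a protein ligand of PILRα known from neurons, rose in male KO. It was at 11.7 ± 3.30 CPM (n = 5) in male KO and 0.987 ± 0.487 (n = 5) in male WT, where single libraries held 1 to 5 UMIs. Every male KO library, from 6.97 to 15.96 CPM, lay above every male WT library. The log2 difference was 3.54 ± 0.37 in males (edgeR adjusted p = 5.46e-06) and, leaving out male KO replicates 6, 9 and 17, it was 3.47 (edgeR adjusted p = 0.000358). In females it was 1.96 ± 0.51 (edgeR adjusted p = 0.0406), a call that held in 8 of 26 alternatives, with 8 UMIs in all 4 WT libraries together and none in KO replicate 33. This call held in 5 of 18 fits that left out 1 library, those without female KO replicate 33, male KO replicate 9 or 17, or male WT replicate 13 or 14. In the other 13 the edgeR adjusted p reached 0.124. With the reads-per-UMI range in the model the female value was 1.12 (edgeR adjusted p = 0.453), and the call was also lost on read counts (1.52), with females alone (1.90) and with DESeq2 (DESeq2 adjusted p = 0.0542). The neuronal marker sums given above moved with Pianp in males, also in male KO replicates 36 and 40, and their part in its difference was not tested.

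In the fit over all 18 libraries the remaining receptors showed no difference between KO and WT that passed. Sirpa encodes SIRPα, the receptor for the CD47 signal against engulfment. It was at 1814 ± 183 CPM (n = 5) in male KO and 1850 ± 85.3 (n = 5) in male WT, and at 2609 ± 615 (n = 4) in female KO and 2096 ± 180 (n = 4) in female WT. The log2 differences were -0.03 ± 0.12 in males (edgeR adjusted p = 0.953) and 0.31 ± 0.14 in females (edgeR adjusted p = 0.263), where KO replicate 33 at 3422 CPM stood above the rest. Cd200r1 encodes the receptor for CD200. It was at 15.2 ± 1.53 CPM in male KO and 16.6 ± 2.25 in male WT (n = 5 each), with a log2 difference of -0.13 ± 0.25 (edgeR adjusted p = 0.858). Female KO libraries held 1.55 to 12.3 CPM of Cd200r1 and female WT libraries 2.24 to 9.29 (-0.04 ± 0.40, edgeR adjusted p = 0.984), at 1 to 44 UMIs per library.

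The sialic acid receptors Siglech and Cd33 were also within the spread. Siglec-H is a marker of microglia that pairs with the adaptor DAP12, so it is grouped here with the inhibitory Siglecs by family and not by a motif of its own. It was at 1879 ± 197 CPM in male KO and 2191 ± 62.8 in male WT (n = 5 each, -0.22 ± 0.13, edgeR adjusted p = 0.402), and at 1901 ± 490 and 1563 ± 206 CPM in female KO and WT (n = 4 each, 0.28 ± 0.15, edgeR adjusted p = 0.367). Cd33 encodes a sialic acid receptor of myeloid cells. It was at 332 ± 51.7 CPM in male KO and 278 ± 10.5 in male WT (n = 5 each, 0.26 ± 0.18, edgeR adjusted p = 0.514). In females it was at 197 ± 82.7 and 164 ± 36.8 CPM (n = 4 each, 0.31 ± 0.21, edgeR adjusted p = 0.539). Against the narrow male WT range of 2115 to 2266 CPM for Siglech, male KO replicate 36 (2139 CPM) lay inside and the other 4 below. For Cd33, male KO replicate 9 (252 CPM) lay below the male WT range of 270.05 to 297 CPM and the other 4 above it. Cd33 passed within males of the lowest reads-per-UMI range (0.33, edgeR adjusted p = 0.0489). Averaged over both sexes it was at 0.28 ± 0.14 (edgeR adjusted p = 0.234), and it passed there without the low-count filter (0.33, edgeR adjusted p = 0.0498).

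Lilrb4a could not be measured. It encodes an inhibitory receptor of the leukocyte immunoglobulin-like family, and 16 of 18 libraries held no UMI of it. Female WT replicate 31 held 1 UMI and male KO replicate 40 held 2. Over a whole group a count of 0 allows up to 0.337 CPM in female KO and 0.208 CPM in male WT, counting error only. It was the 1 member that did not pass the filter on low counts. The gene (ENSMUSG00000112148, chromosome 10, 51490956 to 51496611, plus strand) and its near-identical neighbour Lilr4b both lie within a read-through gene model, Gm49339, on the same strand, which was at 0 in every library. Counting can therefore split or drop their reads. Lilr4b held 27 to 86 UMIs per group, and was at 8.95 ± 3.61 CPM in female KO, 21.9 ± 13.6 in female WT (n = 4 each), 3.30 ± 1.07 in male KO and 1.78 ± 1.16 in male WT (n = 5 each).

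**Figure D4:**
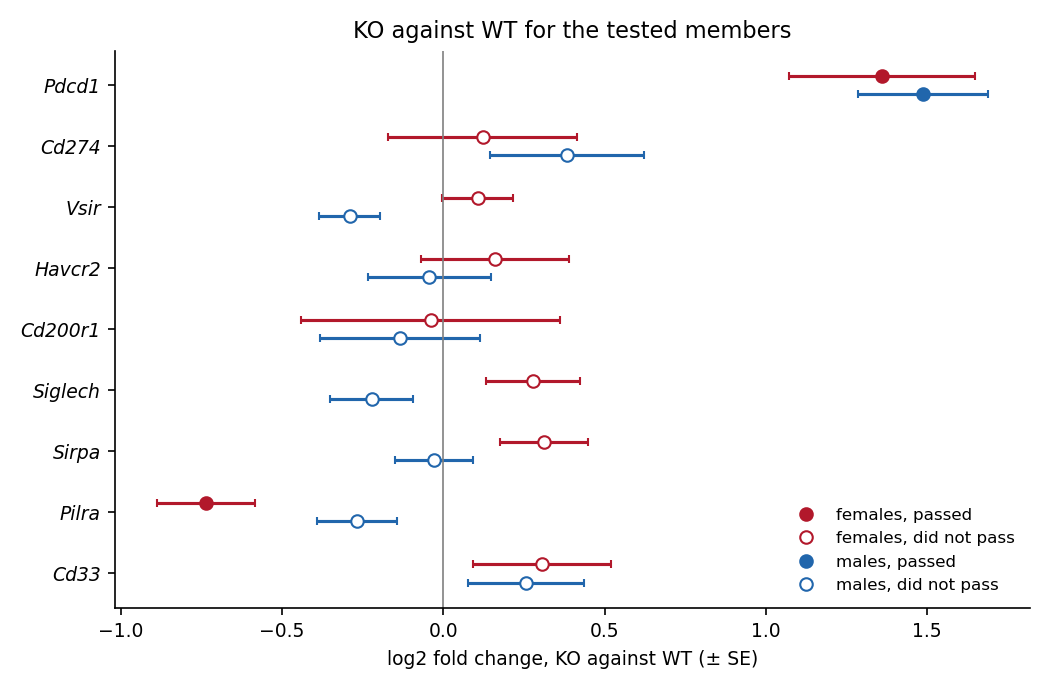
Log2 fold change of KO against WT with its SE for the 9 tested members, in females (red) and males (blue), with filled points for those past an adjusted p of 0.05 in the edgeR fit over all genes. Pdcd1 lies at 1.36 and 1.49, Pilra at -0.74 in females, and the other members lie between -0.29 and 0.38.

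Counted over the 9 tested members, 1 was called higher and 1 lower in female KO, beside 0.849% and 1.83% of the 10948 genes tested (2.68% in either direction). In male KO 1 was called higher and 0 lower, beside 3.37% and 2.87% of genes (6.24% in either direction). At an unadjusted p under 0.05 the males counted 3, and DESeq2 called 1 higher and 1 lower. Averaged over both sexes 1 was higher and 1 lower, beside 4.37% and 5.13% (9.5% in either direction). The member medians on the log2 scale were 0.16 in females and -0.04 in males, against 0.01 and -0.01 over all genes. No member was called for a difference of the KO effect between sexes (edgeR, beside 0.237% of genes, 0.0457% higher and 0.192% lower), where 3 had an unadjusted p under 0.05 and DESeq2 called 0. As the members were chosen with these contrasts known, nothing is read from their counts.

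Between the sexes, 6 of 9 tested members were called in WT, beside 17.3% of genes. Of these 5 were higher in males, beside 6.94% of genes, and 1 was lower, beside 10.3%. Cd200r1 was at 16.6 ± 2.25 CPM (n = 5) in male WT and 6.77 ± 3.22 (n = 4) in female WT, a log2 difference of 1.15 ± 0.34 (edgeR adjusted p = 0.0245). Cd33 was higher by 0.75 ± 0.20 (edgeR adjusted p = 0.0133), Havcr2 by 0.65 ± 0.22 (edgeR adjusted p = 0.0422), Vsir by 0.52 ± 0.10 (edgeR adjusted p = 0.00164) and Siglech by 0.49 ± 0.14 (edgeR adjusted p = 0.0187). For these 5 genes every male WT library lay above every female WT library, as for 8.81% of tested genes. For Pilra and Cd274 every male WT library lay below, as for 9.41%. Pilra was lower in male WT, by a log2 difference of -0.59 ± 0.14 (edgeR adjusted p = 0.00542). In WT, Havcr2 missed the threshold in 7 of 18 fits without 1 library, with an edgeR adjusted p of up to 0.139. It did so too on read counts (edgeR adjusted p = 0.241). Without male KO replicates 6, 9 and 17 its edgeR adjusted p was 0.0549. Cd200r1 missed it in 3 of those 18 fits (edgeR adjusted p up to 0.0736) and on read counts (edgeR adjusted p = 0.168). Pilra missed it without the low-count filter (edgeR adjusted p = 0.0571). Among KO libraries, Cd200r1 (1.06 ± 0.31, edgeR adjusted p = 0.0405) and Cd33 (0.71 ± 0.20, edgeR adjusted p = 0.0328) were higher in males, beside 2.83% of genes, and Sirpa was lower (-0.52 ± 0.13, edgeR adjusted p = 0.0177), beside 4.27% (7.1% in either direction). The WT count of 6 was 3 without female WT replicate 30, where Cd33 (edgeR adjusted p = 0.0683), Siglech (edgeR adjusted p = 0.0820) and Havcr2 missed the threshold. The KO count of 3 was 0 without female KO replicate 33, female KO replicate 7 or male KO replicate 40, and 1 without female KO replicate 1 or male KO replicate 36, 6 or 17. In KO, Cd200r1 missed it in 11 of 18 fits without 1 library (edgeR adjusted p up to 0.137), Cd33 in 7 (up to 0.128) and Sirpa in 3 (up to 0.0669).

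Markers of other cells moved with sex. In WT, 10 of 10 tested neutrophil markers were called lower in males (median log2 difference -3.41), as were 5 of 5 monocyte markers (-2.76) and 9 of 10 border-associated macrophage markers (-2.46). In KO, 4 of 10, 3 of 5 and 0 of 10 were called lower (edgeR, the last with 3 at an unadjusted p under 0.05). Their part in the members' sex differences was not tested. Sex also went together with the reads-per-UMI range, since no male library fell in the highest one. With that range in the model, Havcr2 in WT was -0.024 (edgeR adjusted p = 0.991), Cd33 0.16 (edgeR adjusted p = 0.806), Cd200r1 0.76 (edgeR adjusted p = 0.536) and Vsir 0.49 (edgeR adjusted p = 0.0737). Pilra (edgeR adjusted p = 0.0161) and Siglech (edgeR adjusted p = 0.0468) still passed, so that 2 of 9 members were called, beside 2.48% of genes in that fit. In KO the same edgeR fit called 0 of 9 members, beside 2.98% of genes, and 3 had an unadjusted p under 0.05.

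Around these receptors, 5 lists of partner genes were read in the same fit. Of 13 ligands and counter-receptors 9 were tested. Pianp passed in both sexes, in females with the losses given above, and Fn1, the gene of fibronectin, a ligand of the LILRB4 family, fell in female KO (-2.60 ± 0.59, edgeR adjusted p = 0.0232), as the 1 fall. Fn1 is also a monocyte gene, the sums of whose markers are given above, and without female KO replicate 16, 1 or 7 or female WT replicate 39 or 30 it missed the threshold, with an edgeR adjusted p of up to 0.0854. It also missed it on read counts (edgeR adjusted p = 0.0542) and with females alone (edgeR adjusted p = 0.144). Cd47, the ligand of SIRPα, was at 63.2 ± 8.11 CPM in male KO and 57.8 ± 10.4 in male WT (n = 5 each), and Lgals9, a ligand of TIM-3, at 379 ± 26.2 and 442 ± 33.7 CPM. Neither passed in either sex.

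Of 25 other inhibitory receptors 17 were tested. In male KO 2 rose and 0 fell. Cd72, an inhibitory lectin, was at 31.3 CPM in KO and 17.7 in WT (0.82 ± 0.16, edgeR adjusted p = 0.00252), and the sialic acid receptor Cd22 at 33.2 and 20.4 CPM (0.69 ± 0.20, edgeR adjusted p = 0.0387). In 8 of 18 fits without 1 library Cd22 missed the threshold, those without male KO replicate 36, 6, 9 or 40 or male WT replicate 37, 10, 11 or 14, with an edgeR adjusted p of up to 0.104. It also missed it on read counts (edgeR adjusted p = 0.244) and without male KO replicates 6, 9 and 17 together (edgeR adjusted p = 0.250). Both are known from B cells too. The B cell sums given above moved with them in males, and the part of B cells in these differences was not tested. In female KO 0 of the 17 passed with edgeR and 0 with DESeq2, and 5 had an unadjusted p under 0.05, with Pirb lowest (-0.47 ± 0.16, edgeR adjusted p = 0.139). Averaged over both sexes Siglecf also passed (0.76 ± 0.21, edgeR adjusted p = 0.0260), but not without female KO replicate 16 or 7 or female WT replicate 30 (edgeR adjusted p up to 0.0712), on read counts (edgeR adjusted p = 0.318) or with the reads-per-UMI range in the model (0.39, edgeR adjusted p = 0.394). Cd22 passed there too, but not on read counts (edgeR adjusted p = 0.127) or with that range (0.47, edgeR adjusted p = 0.187). Cd72 passed in 18 of 25 alternatives, and missed the threshold without female KO replicate 7, female WT replicate 39 or 30, male KO replicate 17 or male WT replicate 11 or 14 (edgeR adjusted p up to 0.0739), and without male KO replicates 6, 9 and 17 together (edgeR adjusted p = 0.0769).

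Among the signalling genes behind the receptors, all 17 phosphatases, adaptors and kinases were tested, and in male KO 0 passed with edgeR and 0 with DESeq2, with 1 at an unadjusted p under 0.05. The SHP-1 gene Ptpn6 had log2 differences of -0.02 in males and -0.14 in females, the SHP-2 gene Ptpn11 of -0.10 and -0.13, and the SHIP-1 gene Inpp5d of 0.01 and 0.09. In female KO 1 fell, the Src family kinase Fgr (-1.27 ± 0.24, edgeR adjusted p = 0.00880), at 18.7 ± 2.98 CPM in KO and 44.3 ± 14.8 in WT (n = 4 each). Of 16 activating partners 6 were tested, and Hcst, the gene of the adaptor DAP10, fell in female KO (-0.75 ± 0.15, edgeR adjusted p = 0.0117), with 44.5 ± 3.28 against 74.06 ± 6.07 CPM. In male KO 0 of the 6 passed with edgeR and 0 with DESeq2, 1 with an unadjusted p under 0.05. Tyrobp, the gene of DAP12, differed by 0.02 in males and -0.06 in females. Clec7a was lower averaged over both sexes (-0.83 ± 0.25, edgeR adjusted p = 0.0359). It missed the threshold in 11 of 18 fits without 1 library (edgeR adjusted p up to 0.118). Without female WT replicate 30, Fgr (edgeR adjusted p = 0.0509) and Hcst (edgeR adjusted p = 0.0524) missed the threshold. With females alone both were lost (edgeR adjusted p = 0.133 and 0.140), and Hcst also on read counts (edgeR adjusted p = 0.117) and with the reads-per-UMI range in the model (edgeR adjusted p = 0.0738). Averaged over both sexes, Fgr (-0.81 ± 0.16, edgeR adjusted p = 0.00254) and Hcst (-0.57 ± 0.10, edgeR adjusted p = 0.000664) passed, each also in 25 of 25 alternatives. In males Hcst was at -0.38 ± 0.12 (edgeR adjusted p = 0.0606). Fgr and Hcst moved in the female groups whose monocyte and neutrophil sums differed. In males the monocyte sums overlapped, at 27.7 to 61.4 CPM in KO and 31.4 to 60.0 in WT. The part of these cells in either fall was not tested.

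Of 17 transcription factors known to act on Pdcd1 or Cd274, 14 were tested. In female KO 1 rose, Jun, a subunit of AP-1, from 414 ± 85.6 to 959 ± 248 CPM (n = 4 each, 1.21 ± 0.18, edgeR adjusted p = 0.00264), a call lost with females fitted alone (edgeR adjusted p = 0.0720). In male KO 0 of the 14 passed with edgeR and 0 with DESeq2, and 0 had an unadjusted p under 0.05. Irf8 had the lowest p there (-0.19 ± 0.11, edgeR adjusted p = 0.444). Jun was at 1494 ± 124 CPM in male KO and 1495 ± 290 in male WT (n = 5 each). Averaged over both sexes it was higher in KO by 0.61 ± 0.12 (edgeR adjusted p = 0.00254). Nfatc1, the gene of a known activator of Pdcd1 in T cells, differed by -0.01 in males and 0.09 in females.

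**Figure D5:**
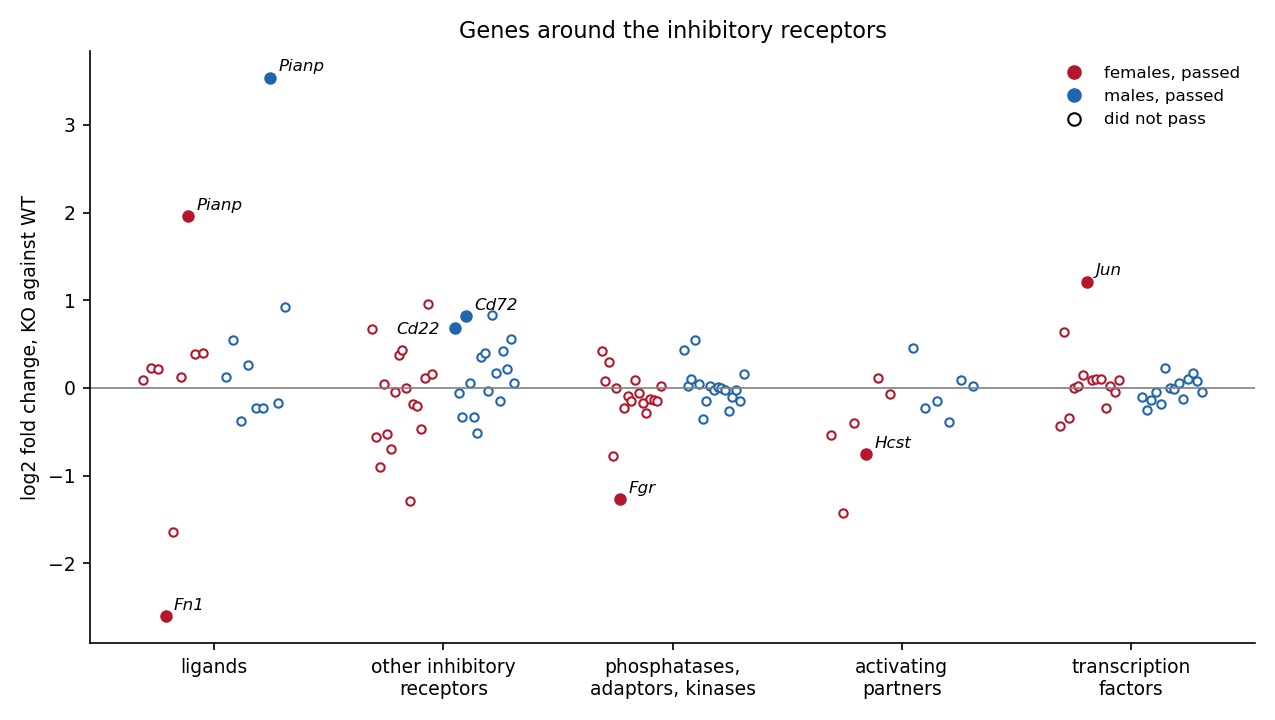
Log2 fold change of KO against WT for every tested gene of the 5 lists, in females (red) and males (blue), 1 point per gene, filled and named where it passed an adjusted p of 0.05 in the edgeR fit over all genes. Pianp (1.96 and 3.54) and Fn1 (-2.60) lie farthest from 0. No phosphatase, adaptor or kinase passed in males, where the gene of lowest p, Dok2, lies at 0.55 (edgeR adjusted p = 0.246).

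The genes whose pattern over the 18 libraries was most like that of Pdcd1 were Prss36, Crlf2, Cdiptos, Nrm and Camk2n1. Likeness was the root mean square difference between log2 CPM values, each centred on the gene's mean, over 10063 named candidates. It was 0.36 for Prss36, a serine protease gene, 0.37 for Crlf2, which encodes the receptor for the cytokine TSLP, and 0.42 for each of Cdiptos, Nrm, which encodes a nuclear envelope protein, and Camk2n1, against a median of 0.87. Prss36 was higher in male KO by 0.83 ± 0.14 (edgeR adjusted p = 0.000886) and in female KO by 1.23 ± 0.20 (edgeR adjusted p = 0.00420). Crlf2 was higher by 1.24 ± 0.19 in males (edgeR adjusted p = 0.000202) and 1.22 ± 0.22 in females (edgeR adjusted p = 0.00758). With the reads-per-UMI range in the model the female values were 0.95 for Prss36 (edgeR adjusted p = 0.0809) and 0.77 for Crlf2 (edgeR adjusted p = 0.0738), and with females alone neither passed (edgeR adjusted p = 0.0874 and 0.140). On read counts Prss36 passed in neither sex (edgeR adjusted p = 0.0896 in females and 0.0508 in males). The likeness is a description, since these genes were picked for it.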

How the data were processed

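Bulk MARS-seq libraries of polyadenylated RNA from 18 microglia samples were analysed. Whole-number counts, unscaled for depth, were deposited by the authors in a table of reads and a table of UMI-corrected counts. Per the submitters' processing notes cutadapt, STAR and HTSeq were used with the genome build mm10. The sources used here give neither versions, annotation release, filters and strand setting nor the UMI method. Of the 34 library columns in each table, 16 could be tied to no listed sample and were set aside. Symbols and coordinates came from GENCODE M21 (GRCm38, the assembly of mm10), which matched 52081 of 55414 identifiers.

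UMI-corrected counts were filtered with filterByExpr by group (10948 genes and 9 of 10 members passed), scaled by TMM and fitted with 1 mean per group over all 18 libraries by edgeR 4.0.16 quasi-likelihood in R 4.3.3. The common biological coefficient of variation was 17.8%. Calls required p below 0.05 after Benjamini-Hochberg adjustment over all genes tested. The SE is the log2 fold change divided by the square root of F. UMI totals of 435838 to 9149144 limit precision, and intervals cover counting error only.

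Members and the 5 partner and 12 marker lists were chosen with earlier results of these data known. Genes named from the partner lists were up to 4 called per KO contrast by lowest p, or the 1 of lowest p where none passed. Those likest Pdcd1 were the 5 with the smallest difference, predicted genes left out. A few other genes (the phosphatase genes, Cd47, Lgals9, Tyrobp, Nfatc1, Zcwpw1, Cdh23, Lilr4b, Pdcd1lg2, single marker genes) were named after their values were seen, for their link to a member. Alternatives were RLE size factors, no low-count filter, DESeq2 1.42.0, read counts, a covariate for the range of reads per UMI, each sex fitted alone, leaving out shallow or neural-rich libraries and leaving out each library. Males of the lowest reads-per-UMI range were added after seeing the data.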

Additional observations from a re-analysis of the deposited data

Results flagged for a closer look

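Within groups, 4 of 38 sets of libraries held a value apart from the others by Dixon's criterion at 95%, where chance gives about 1 in 20. Cd274 in female WT replicate 39 was low, at 10.4 CPM against 12.9 to 13.4 CPM in the other 3 libraries, on 13 UMIs. Cd274 in male KO replicate 17 was high, at 14.7 CPM against 7.97 to 8.63 CPM, on 48 UMIs. Lilrb4a in female WT replicate 31 (0.562 CPM, 1 UMI) and in male KO replicate 40 (0.203 CPM, 2 UMIs) stood apart only because the other libraries held none.

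For Jun the KO effect differed between the sexes, by 1.21 ± 0.24 on the log2 scale (female minus male, edgeR interaction test, adjusted p = 0.0427). It missed the threshold in 13 of 18 fits that left out 1 library, where the edgeR adjusted p reached 0.0911, and passed in the other 5, those without female KO replicate 33, female WT replicate 31 or 30, male KO replicate 40 or male WT replicate 37. With the reads-per-UMI range in the model it was 1.08 (edgeR adjusted p = 0.0734), and without male KO replicates 6, 9 and 17 together 1.17 (edgeR adjusted p = 0.328).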

How the results depend on the processing

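No paired analysis was possible because no replicate number occurs in more than 1 group. Over 27 alternatives the called member counts moved as follows. In female KO against WT 2 became 1 with a covariate for the range of reads per UMI and 0 with females fitted alone (edgeR, 2 members and 1018 genes at an unadjusted p under 0.05), and 1 to 2 on leaving out 1 library. In males 1 became 2 with DESeq2, with males fitted alone and without the 2 shallowest libraries, 3 in males of the lowest range, and 1 to 2 on leaving out 1 library. Averaged over both sexes 2 became 3 without the low-count filter, where Cd33 was added. In WT, male against female, 6 became 2 with the covariate and 3 to 6 on leaving out 1 library, 3 without female WT replicate 30. In KO, 3 became 0 on read counts, with the covariate and without male KO replicates 6, 9 and 17 (edgeR, 3, 3 and 5 members at an unadjusted p under 0.05), 1 without the shallow libraries, and 0 to 4 on leaving out 1 library.

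Signs turned only for members that had not passed, save Havcr2 in WT. In females Cd200r1 was 0.0479 without the filter, Vsir -0.00039 and Havcr2 -0.0348 on read counts, and Havcr2 -0.36 and Cd33 -0.13 with the covariate. Havcr2 in males was 0.15 without male KO replicates 6, 9 and 17 and 0.0295 in the lowest range, and in WT by sex -0.0236 with the covariate. Leaving out 1 library, female values ran from -0.19 to 0.23 for Cd274, -0.0731 to 0.36 for Havcr2 and -0.68 to 0.29 for Cd200r1, male values from -0.11 to 0.0268 for Havcr2 and -0.0802 to 0.0277 for Sirpa, and the Pdcd1 difference between sexes from -0.36 to 0.092. The cause of these changes was not tested.

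Genes called over the whole table also moved. The female count of 293 was 532 without the filter, 130 on read counts, 100 with the covariate, 0 with females alone, 474 without shallow libraries and 76 to 687 leaving out 1 library. The male count of 683 was 223 on read counts, 1236 with males alone and 205 without replicates 6, 9 and 17. The averaged count of 1040 was 462 and 622 on read counts and with the covariate. The interaction count of 26 was 238, 83, 11 and 1 without the filter, with DESeq2, on read counts and without those 3 libraries, and 4 to 87 leaving out 1. By sex in WT, 1892 was 1141 on read counts, 271 with the covariate and 1088 to 2383 leaving out 1. By sex in KO, 777 was 1354, 347, 326 and 116 without the filter, on read counts, with the covariate and without those 3 libraries, and 199 to 1769 leaving out 1.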
